A study of Homo sapiens with 12 samples.

Results

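Asparagine synthetase, the enzymes that make serine and pass its carbon to folate, and a pair of neighbouring enzymes were followed in U937, an established human line of monocyte-like leukaemia cells. They were chosen by name, with earlier results of these data known. The genes are ASNS, PHGDH, PSAT1, PSPH, SHMT1, SHMT2, MTHFD2, MTHFD1L, PCK2 and PYCR1, with every array probe that the platform annotation assigns to them. That gave 16 probes for 10 genes, of 24526 probes on the array. A probe was kept for testing when its detection p-value was under 0.05 on at least 4 of the 12 arrays. By that filter 14 of the 16 probes were kept, for 9 genes, among 13174 kept probes in all.

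The arrays were Illumina BeadChips in 3 groups of 4: cells labelled control, cells given EX527, which inhibits the deacetylase SIRT1, for 24 h, and cells given MC2494 for the same time, described by the series as a sirtuin inhibitor. All cells grew in RPMI medium with 2 mM glutamine. The labels give neither the dose of a compound nor a vehicle for the controls, and nothing in them tells whether replicate arrays stand for independent cultures. Each p-value therefore reflects array-to-array spread, possibly of technical origin. The arrays limit the precision by their number, and a single cell line limits what the groups can stand for.

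Serine is made from an intermediate of glycolysis in 3 steps. PHGDH oxidises 3-phosphoglycerate, PSAT1 transfers an amino group from glutamate, and PSPH removes the phosphate. The serine hydroxymethyltransferases, SHMT1 in the cytosol and SHMT2 in mitochondria, then split serine into glycine and a carbon unit carried by folate. In mitochondria MTHFD2 and MTHFD1L turn that unit into formate, which leaves for the cytosol and feeds the synthesis of purines and thymidylate. ASNS makes asparagine from aspartate and glutamine, PCK2 makes phosphoenolpyruvate from oxaloacetate inside mitochondria, and PYCR1 makes proline. Several of these genes are known targets of ATF4, the transcription factor made when amino acids are short, which pairs with C/EBP proteins on elements with the core TGATGNAA.

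Promoter sequence from RefSeq (build GRCh38.p14, from 250 bases before to 50 after an annotated start) was matched for 7 of the 10 genes, in 11 windows. The 4 windows shown are those of ASNS and PSAT1, whose probes rose most, of MTHFD1L, which holds the same core as ASNS and moved little, and of SHMT1, which fell after MC2494. Capitals mark TGATGNAA, GTTACA and CCAAT, the last being the letters of the NF-Y box, each searched on both strands, and no 2 marked matches overlap.
ASNS: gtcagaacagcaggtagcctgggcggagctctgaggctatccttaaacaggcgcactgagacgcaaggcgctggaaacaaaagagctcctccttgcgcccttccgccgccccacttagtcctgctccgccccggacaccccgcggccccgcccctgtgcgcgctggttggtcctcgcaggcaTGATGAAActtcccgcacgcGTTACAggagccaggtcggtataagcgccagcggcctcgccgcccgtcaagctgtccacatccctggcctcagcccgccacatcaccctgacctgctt
PSAT1: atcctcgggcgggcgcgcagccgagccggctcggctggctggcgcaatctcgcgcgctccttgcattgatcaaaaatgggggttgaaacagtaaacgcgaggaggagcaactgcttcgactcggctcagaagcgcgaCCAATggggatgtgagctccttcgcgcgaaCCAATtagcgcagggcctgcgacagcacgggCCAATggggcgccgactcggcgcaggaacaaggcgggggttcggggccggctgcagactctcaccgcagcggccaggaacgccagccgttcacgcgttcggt
MTHFD1L: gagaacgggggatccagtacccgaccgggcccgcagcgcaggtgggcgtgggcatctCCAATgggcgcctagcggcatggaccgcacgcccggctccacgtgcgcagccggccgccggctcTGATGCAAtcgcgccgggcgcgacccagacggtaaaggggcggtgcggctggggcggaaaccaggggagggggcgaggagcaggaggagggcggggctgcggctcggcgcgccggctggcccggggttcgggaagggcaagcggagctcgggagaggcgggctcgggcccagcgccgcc
SHMT1: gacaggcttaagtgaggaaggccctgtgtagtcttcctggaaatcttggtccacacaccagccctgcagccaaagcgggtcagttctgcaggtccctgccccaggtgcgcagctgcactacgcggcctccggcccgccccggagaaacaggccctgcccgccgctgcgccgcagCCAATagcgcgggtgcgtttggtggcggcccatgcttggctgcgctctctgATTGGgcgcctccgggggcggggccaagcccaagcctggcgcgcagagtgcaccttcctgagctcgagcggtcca
These windows lie at chr7:97872359-97872658 on the minus strand (ASNS), chr9:78296875-78297174 on the plus strand (PSAT1), chr6:150866236-150866535 on the plus strand (MTHFD1L) and chr17:18363501-18363800 on the minus strand (SHMT1), and each is printed 5′ to 3′ in the direction of its gene.

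In the ASNS window the core TGATGAAA lay at bases -68 to -61 from the start and GTTACA at -48 to -43. The human ASNS promoter is known for such a pair of nutrient-sensing elements. TGATGNAA was present in 2 of the 7 genes, ASNS and MTHFD1L, against 4.46% of all 27305 genes with a window. By window it was 4 of the 11, against 3.62% of all windows. The MTHFD1L windows that hold the core overlap and share the same site. ASNS and MTHFD1L each also had a window at another annotated start, not shown, without the core. GTTACA was found in ASNS alone of the 7, against 8.07% of all genes. CCAAT was found in 6 of the 7, the exception being ASNS, and in 39.72% of all genes, with 3 copies upstream of PSAT1. The E-box CACGTG, not capitalised, was found in MTHFD1L alone of the 7, against 8.77% of all genes. A match in these letters is a description of the window and says nothing of binding.

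Signals are given below as normalized log2 values of each array, background-corrected and quantile normalized, in the order of replicates 1 to 4. Mean raw signal per array ran from 764 to 792.6 in control, from 710.7 to 783.2 in EX527 and from 623.4 to 694.6 in MC2494, so the MC2494 arrays were the dimmer ones, and results that depend on how arrays were scaled are named with their values. The part of that dimming in any change was not tested. Between 12231 and 13030 probes were detected per array. Of 12 myeloid and monocytic markers on the array, 11 were detected, among them SPI1, PTPRC and LYZ, while MPO was not. The T cell markers CD3D, CD3E, CD3G and CD2 were not detected, while the B cell markers MS4A1, CD79A and CD79B were, making 3 of 7 lymphocyte markers. Of the erythroid markers 1 of 4 was detected (KLF1), and of the epithelial or fibroblast markers 1 of 6 (EPCAM).

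**Figure D1:**
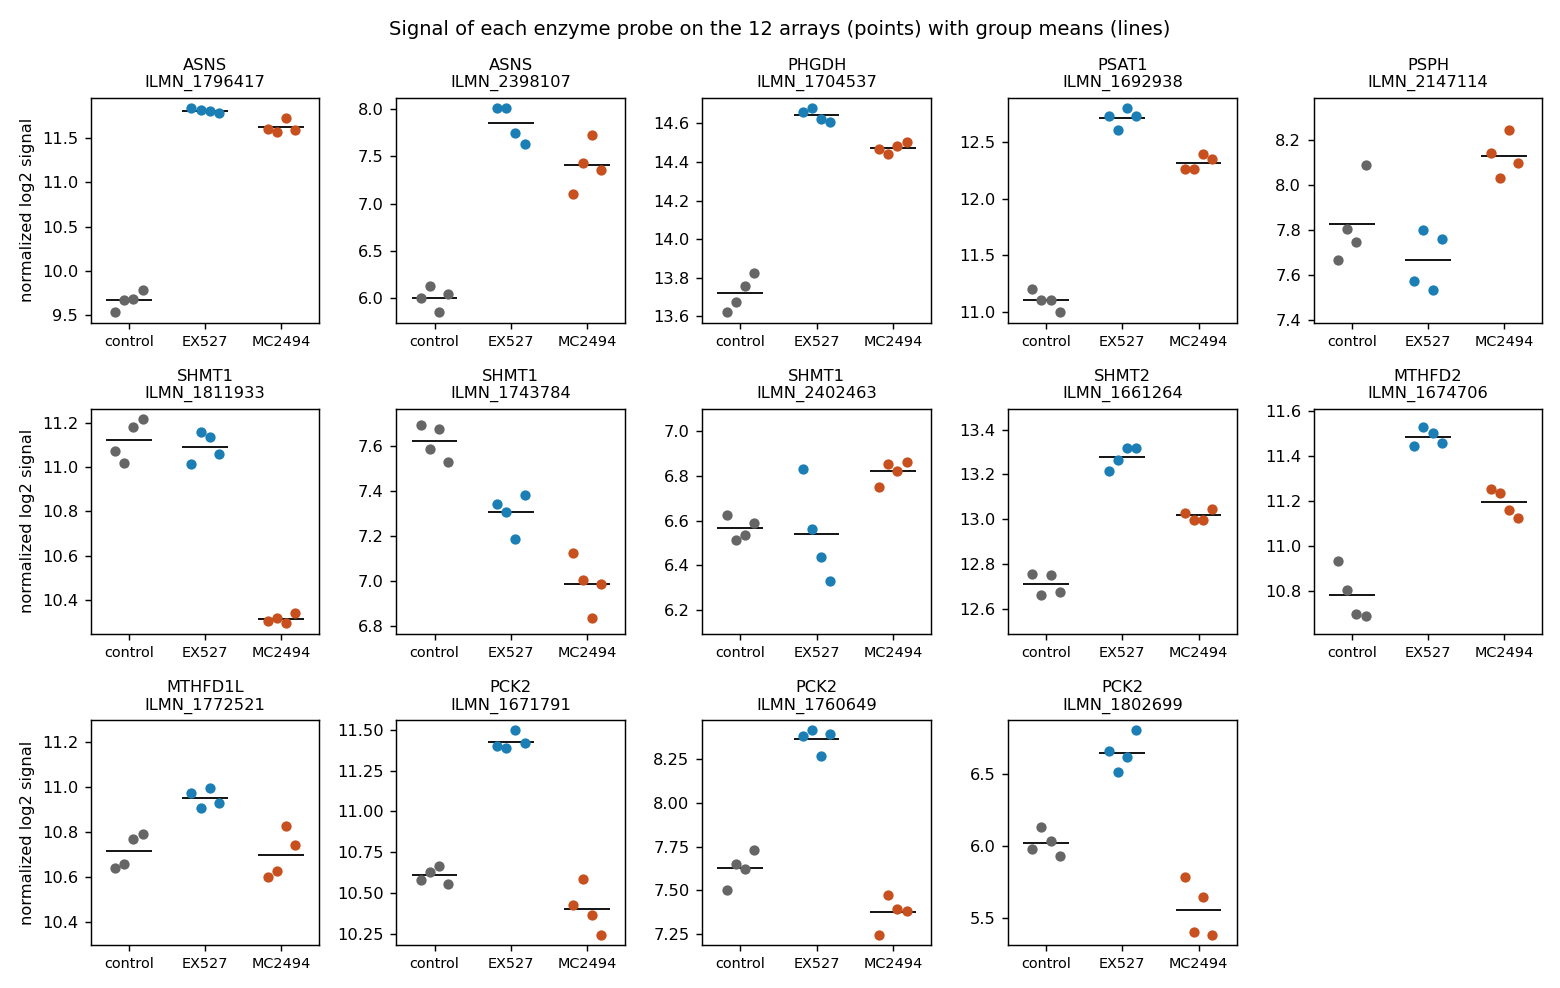
Normalized log2 signal (vertical axis, a separate range in each panel) of the 14 kept enzyme probes on the 12 arrays. Points are single arrays in the order of replicates 1 to 4 and lines are means of 4 arrays; both treated groups lie above control for ASNS, PHGDH, PSAT1, SHMT2 and MTHFD2 (for SHMT2 in MC2494 not without quantile normalization), while the PCK2 probes are high in EX527 only.

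Asparagine synthetase showed the widest difference of the set after both compounds. On its brighter probe, ILMN_1796417, ASNS read 9.54, 9.67, 9.68 and 9.79 in control, 11.84, 11.82, 11.80 and 11.78 in EX527, and 11.61, 11.57, 11.73 and 11.59 in MC2494. The 3 groups did not overlap, with EX527 highest and MC2494 close under it. In raw intensity the control arrays lay between 846 and 933.9, the EX527 arrays between 3575 and 3968, and the MC2494 arrays between 2593 and 3194. ASNS was 4.40-fold higher in EX527 than in control (2.14 ± 0.06 on the log2 scale, SE, with 4 arrays in each group; limma adjusted p = 3.9e-11). Only 4 of the 13174 kept probes rose more in that comparison. After MC2494 it was 3.87-fold higher (1.95 ± 0.06; limma adjusted p = 4.1e-12), at rank 80 among the rises. The dimmer ASNS probe, ILMN_2398107, rose 3.57-fold in EX527 and 2.62-fold in MC2494, from a raw intensity of 104.2 to 125.5 in control. The size of that rise depended on background correction. On the log2 scale it was 1.84 in EX527 and 1.39 in MC2494, but 1.28 and 0.93 without background correction.

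Among the serine synthesis genes the first and second steps rose after both compounds, and the third was called higher after MC2494 but not after EX527. PHGDH, the entry enzyme, read 13.62, 13.67, 13.76 and 13.83 in control, 14.66, 14.68, 14.62 and 14.61 in EX527, and 14.47, 14.44, 14.48 and 14.50 in MC2494. All treated arrays lay above all control arrays, and all EX527 arrays above all MC2494 arrays. PHGDH was 1.90-fold higher in EX527 (log2 difference 0.93 ± 0.05, SE; limma adjusted p = 1.4e-08) and 1.69-fold higher in MC2494 (0.76 ± 0.05; limma adjusted p = 1.6e-08).

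PSAT1, the aminotransferase of the second step, read 11.20, 11.10, 11.10 and 11.00 in control on probe ILMN_1692938. It read 12.73, 12.60, 12.80 and 12.73 in EX527 and 12.26, 12.26, 12.39 and 12.35 in MC2494. The order was again control, MC2494, EX527, with no overlap between groups. Its rise was 3.06-fold in EX527 (log2 difference 1.61 ± 0.06, SE; limma adjusted p = 5.8e-10), at rank 18 of all probes, and 2.32-fold in MC2494 (1.21 ± 0.06; limma adjusted p = 4.6e-10), at rank 507. A further PSAT1 probe, ILMN_1712563, which the annotation ties to another RefSeq transcript, was not detected on any array, with detection p of at least 0.252, and gives no value for that transcript.

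PSPH, the phosphatase that completes serine, read 7.67, 7.81, 7.75 and 8.09 in control, 7.57, 7.80, 7.53 and 7.76 in EX527, and 8.14, 8.03, 8.25 and 8.10 in MC2494. Control and EX527 arrays were interleaved, and 1 control array lay inside the MC2494 range. EX527 differed from control by -0.16 on the log2 scale, with a 95% interval from -0.36 to 0.04 (limma adjusted p = 0.16). MC2494 was 1.23-fold higher than control (log2 difference 0.30 ± 0.09, SE; limma adjusted p = 0.0087). PSPH was the only enzyme gene of the 9 whose brightest probe was higher in MC2494 than in EX527, at 1.38-fold (limma adjusted p = 0.00055).

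Of the serine hydroxymethyltransferases, the mitochondrial SHMT2 rose after EX527, and after MC2494 under quantile normalization only among the scalings applied to the raw signals, while the probes of the cytosolic SHMT1 differed in direction. SHMT2 read 12.76, 12.66, 12.75 and 12.68 in control, 13.22, 13.27, 13.32 and 13.32 in EX527, and 13.03, 13.00, 13.00 and 13.05 in MC2494. The 3 groups stood apart on these values. SHMT2 was 1.48-fold higher in EX527 (log2 difference 0.57 ± 0.05, SE; limma adjusted p = 4.9e-07) and 1.24-fold higher in MC2494 (0.31 ± 0.05; limma adjusted p = 6e-05). The MC2494 rise of SHMT2 was present with quantile normalization alone: with median scaling the difference was -0.01 (adjusted p = 0.90) and with no scaling -0.01 (adjusted p = 0.88). Raw SHMT2 intensity, at 7116 to 7884 in control and 6963 to 7738 in MC2494, overlapped, whereas EX527 at 9137 to 10955 lay above both.

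SHMT1 had 3 kept probes, which did not move alike. The brightest, ILMN_1811933, read 11.07, 11.02, 11.18 and 11.22 in control, 11.01, 11.16, 11.14 and 11.06 in EX527, and 10.31, 10.32, 10.30 and 10.34 in MC2494. The MC2494 arrays lay below all others and within 0.05 of each other, while control and EX527 overlapped. On that probe the SHMT1 signal fell 1.75-fold with MC2494 (-0.81 ± 0.06 in log2, SE; limma adjusted p = 1.5e-08) and differed in EX527 by -0.03, with a 95% interval from -0.15 to 0.09 (adjusted p = 0.68). ILMN_1743784 fell in both, by 0.63 in MC2494 and by 0.32 in EX527 (limma adjusted p = 1.4e-06 and 0.0016). The dimmest, ILMN_2402463, was higher in MC2494 by 0.25 (limma adjusted p = 0.017) and differed in EX527 by -0.03 (adjusted p = 0.82). The annotation gives ILMN_2402463 the same RefSeq transcript as the brightest probe, and its raw intensity was 131.6 to 171.7 over all arrays, so the direction of SHMT1 rests on which probe is read.

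The mitochondrial folate enzymes rose with EX527, MTHFD2 more than MTHFD1L. MTHFD2, the dehydrogenase and cyclohydrolase, read 10.94, 10.80, 10.70 and 10.69 in control, 11.44, 11.53, 11.50 and 11.46 in EX527, and 11.26, 11.24, 11.16 and 11.12 in MC2494. Every treated array exceeded every control array. MTHFD2 was 1.63-fold higher in EX527 (log2 difference 0.70 ± 0.06, SE; limma adjusted p = 6.1e-07) and 1.33-fold higher in MC2494 (0.41 ± 0.06; limma adjusted p = 3.5e-05). The MC2494 call was lost with median scaling (0.15, adjusted p = 0.067) and with no scaling (0.15, adjusted p = 0.14).

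MTHFD1L, the formate-releasing synthetase, read 10.64, 10.66, 10.77 and 10.79 in control, 10.97, 10.91, 11.00 and 10.93 in EX527, and 10.60, 10.63, 10.83 and 10.74 in MC2494. EX527 arrays lay above the controls, and MC2494 arrays spanned the control range. The EX527 rise was 1.18-fold (log2 difference 0.24 ± 0.06, SE; limma adjusted p = 0.0051), and it was 0.14 (adjusted p = 0.13) with median scaling and 0.18 (adjusted p = 0.083) with no scaling. For MC2494 the difference was -0.02, with a 95% interval from -0.15 to 0.12 (limma adjusted p = 0.84), but -0.27 (adjusted p = 0.0049) with median scaling and -0.28 (adjusted p = 0.0078) with no scaling. The window of MTHFD1L holds the TGATGNAA core of ASNS, and that of PSAT1, with the second widest rise, lacks it. Sequence outside the windows was not searched, and whether the core bears on these changes was not tested.

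PCK2 was the enzyme gene on which the compounds went in opposite directions, on all 3 of its probes. The brightest, ILMN_1671791, read 10.58, 10.63, 10.67 and 10.56 in control, 11.40, 11.39, 11.50 and 11.42 in EX527, and 10.42, 10.58, 10.36 and 10.24 in MC2494. EX527 arrays stood clear above control, and MC2494 arrays lay at or below it, 1 of them within the control range. In EX527 the PCK2 probes were 1.77-fold, 1.67-fold and 1.55-fold higher, from the brightest to the dimmest (limma adjusted p = 3.2e-07, 6e-07 and 5.9e-05). In MC2494 they fell by 0.20 ± 0.07, 0.25 ± 0.07 and 0.46 ± 0.09 on the log2 scale (SE; limma adjusted p = 0.014, 0.0032 and 0.00042). Without MC2494 replicate 4 the fall of the brightest probe was -0.15 (adjusted p = 0.052), and the other 2 probes kept their call when any 1 array was left out. Between MC2494 and EX527 the 3 probes differed by -1.02 ± 0.07, -0.99 ± 0.07 and -1.09 ± 0.09 (limma adjusted p at most 1.6e-07), which is 2.03-fold, 1.99-fold and 2.13-fold. The PCK2 falls in MC2494 were also called with median scaling (-0.44, -0.26 and -0.43) and without any scaling (-0.44, -0.27 and -0.43).

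PYCR1, the proline enzyme, had 1 probe, and it was not detected on any of the 12 arrays, with detection p of at least 0.488 and raw intensity between 54.5 and 68.4. No change in PYCR1 can be read from it.

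**Figure D2:**
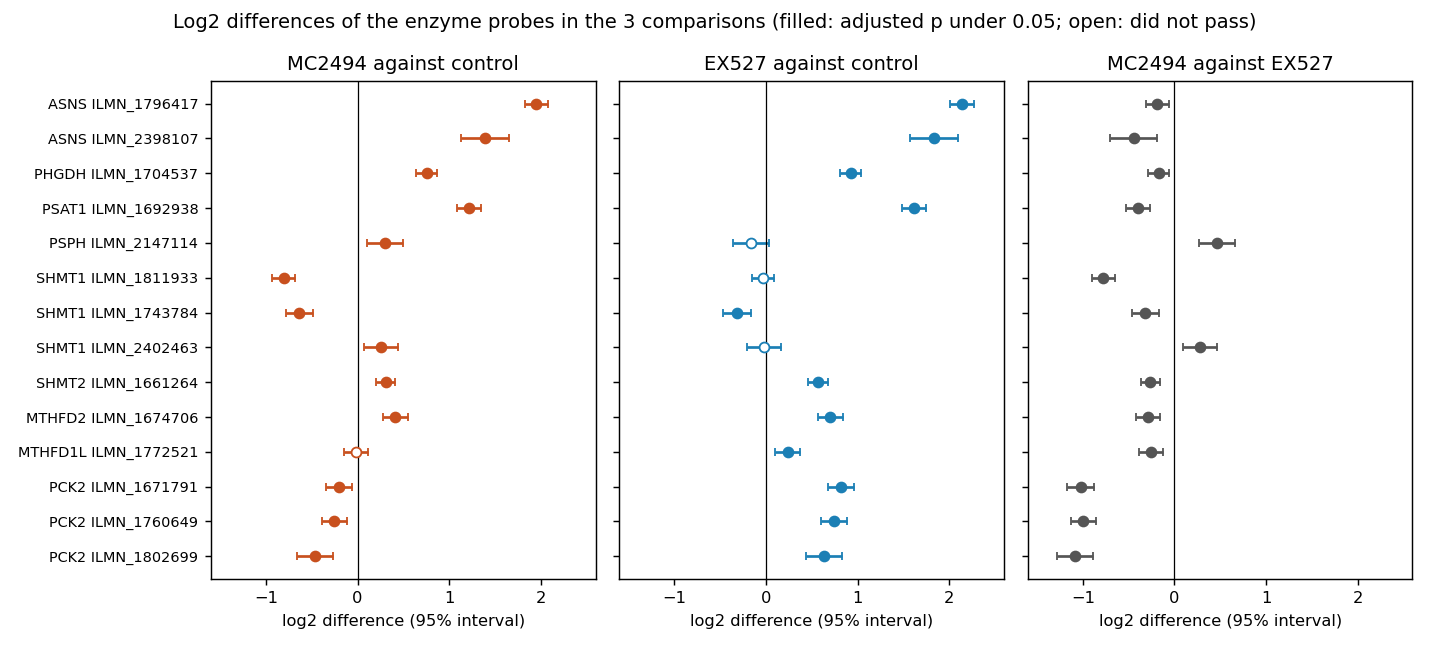
Log2 difference (horizontal axis) with its 95% interval for each of the 14 kept enzyme probes (vertical axis) in MC2494 against control, EX527 against control and MC2494 against EX527. Filled points passed adjusted p under 0.05; in the third panel 12 of the 14 probes lie left of 0, and the 3 PCK2 probes lie near -1.

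Taking the set by its counts, EX527 raised 10 of the 14 kept probes and lowered 1 against control (limma, adjusted p under 0.05 over all kept probes), where 24.3% of all kept probes were higher and 30% lower. That is 78.6% of the enzyme probes called, where 54.3% of all kept probes were called. As the set was chosen with earlier results of these data known, these shares describe it and are no test. The highest adjusted p among those 11 was 0.0051. The median log2 difference of the 14 kept probes was 0.67, against -0.04 over all kept probes. By brightest probe per gene, 7 of 9 rose, none fell, and PSPH and SHMT1 did not pass. The groups did not overlap for 11 of the 14 probes, against 49.7% of all kept probes. With median scaling, and likewise with no scaling, 9 rose and 1 fell.

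MC2494 raised 8 of the 14 probes and lowered 5, with MTHFD1L alone not called, where 35.4% of all kept probes were higher and 35.3% lower. That is 92.9%, in a comparison in which 70.8% of all kept probes were called. The median was 0.28, against -0.01 over all kept probes. By brightest probe per gene 6 rose (ASNS, PHGDH, PSAT1, PSPH, SHMT2 and MTHFD2), and SHMT1 and PCK2 fell. The groups did not overlap for 11 of 14 probes, against 64% of all kept probes. With median scaling or with no scaling the split was 6 higher and 6 lower.

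**Figure D3:**
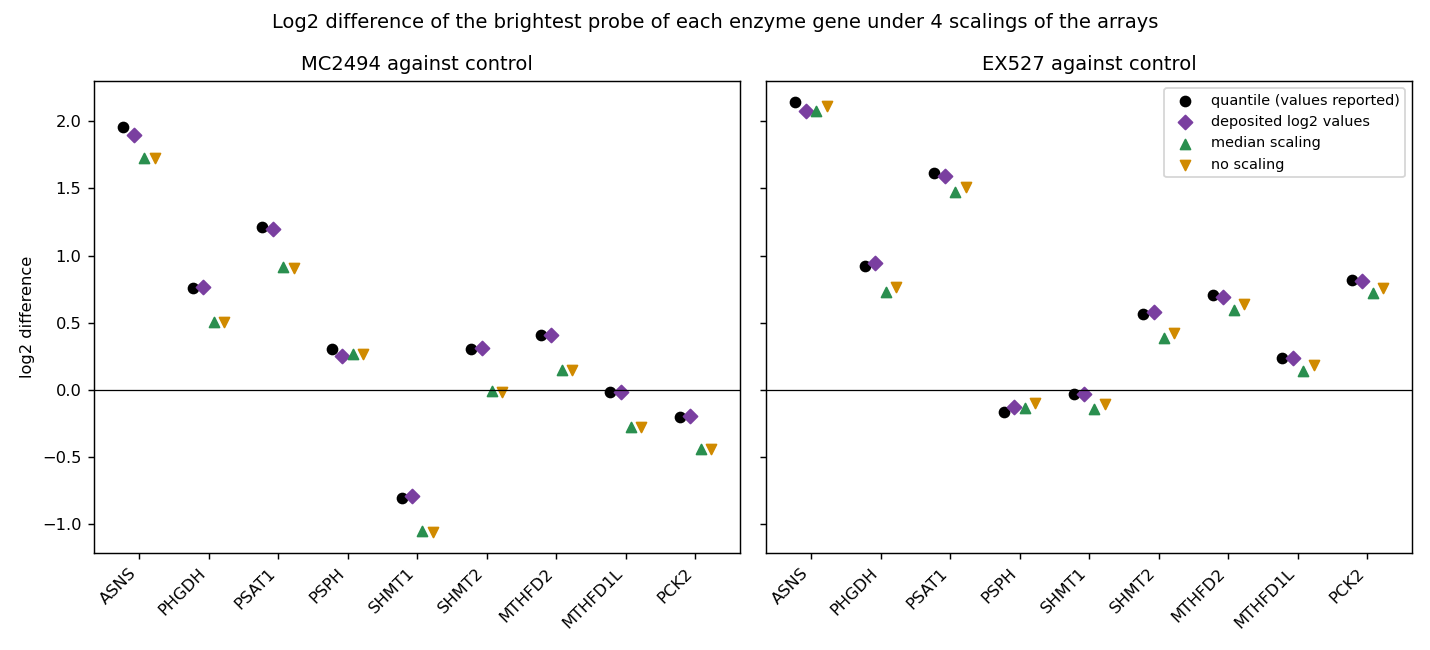
Log2 difference (vertical axis) of the brightest probe of each of the 9 detected enzyme genes under quantile normalization, the authors' deposited log2 values, median scaling and no scaling. In MC2494 against control SHMT2 drops from 0.31 to -0.01 without quantile normalization and MTHFD1L goes from -0.02 to -0.27 with median scaling and -0.28 with no scaling, while ASNS, PHGDH and PSAT1 stay at 0.50 or more under each.

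Compared directly, with both doses unknown, the compounds differed on all 14 kept enzyme probes, where 60.4% of all kept probes were called (limma, adjusted p of at most 0.016). MC2494 was lower on 12 and higher on 2, PSPH and the dimmest SHMT1 probe, where 29% of all kept probes were lower and 31.4% higher. The groups did not overlap for 12 of 14 probes, against 54.2% of all kept probes. Beside PCK2, the widest gap was that of SHMT1 on its brightest probe, 1.71-fold lower in MC2494 (log2 difference -0.78 ± 0.06, SE; limma adjusted p = 4e-08), followed by PSPH, the dimmer ASNS probe at -0.44 ± 0.12 (limma adjusted p = 0.0055), and PSAT1, 1.32-fold lower (-0.40 ± 0.06; limma adjusted p = 6.3e-05). On its brighter probe ASNS was 1.14-fold lower (-0.19 ± 0.06; limma adjusted p = 0.016), PHGDH 1.12-fold (adjusted p = 0.014), SHMT2 1.20-fold, MTHFD2 1.22-fold and MTHFD1L 1.19-fold. Over all kept probes 52% of the calls were higher in MC2494, but 41.2% with median scaling and 35.2% with no scaling. The split of the enzyme probes was 2 higher and 12 lower with median scaling too, and 1 higher and 12 lower with no scaling, where the dimmest SHMT1 probe lost its call (0.20, adjusted p = 0.094).

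Genes around these enzymes were read from 6 lists of related genes, each gene by its brightest kept probe. As a background to these counts, 35.4% of all kept probes were higher and 35.3% lower in MC2494, and 24.3% and 30% in EX527. Of 7 measured folate and one-carbon genes, 4 fell and 2 rose in MC2494, and 2 fell and none rose in EX527. MTHFD1, the cytosolic counterpart of the mitochondrial folate enzymes, fell by 1.53 in MC2494 and by 0.32 in EX527 (limma adjusted p = 2.3e-10 and 0.002). In MC2494 the thymidylate synthase TYMS fell by 2.15, and the purine synthesis genes GART and ATIC fell by 0.73 and 0.54. The other kept GART probes gave -0.97 and -0.21 (adjusted p = 8.6e-10 and 0.09). MTHFS, which returns stored folate to use, was 0.55 higher. In EX527, ATIC at -0.11 and the brightest GART probe at -0.10 did not pass. Both did with median scaling (-0.28 and -0.26) and without scaling (-0.24 and -0.22). The other kept GART probes gave -0.25 and -0.03 in EX527 (limma adjusted p = 0.00098 and 0.82).

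Genes that use serine or glycine moved in both directions. Of 21 measured, 11 rose and 8 fell in MC2494, and 6 rose and 6 fell in EX527. With median scaling or no scaling the MC2494 split was 8 higher and 10 lower. CTH and CBS, the enzymes that carry serine and homocysteine to cysteine, rose in both: CTH by 1.73 in EX527 and 1.13 in MC2494, and CBS by 0.72 and 0.69 (limma adjusted p at most 2.2e-07). CTH was lower in MC2494 than in EX527 by -0.60 (adjusted p = 7.9e-07), the same direction as PSAT1. Within the glycine cleavage system AMT rose by 1.19 in MC2494 and 0.66 in EX527, and GCSH fell by 0.87 in MC2494 with 0.00 in EX527. GLDC, not detected on any MC2494 array, was at least 1.25-fold lower there (limma adjusted p = 0.00099). In EX527, where it was detected on 1 of the 4 arrays, GLDC fell by 0.36 (limma adjusted p = 0.0079). The compounds differed on GLDC by -0.10 (limma adjusted p = 0.44). SFXN1, the mitochondrial serine carrier, fell by 0.63 in MC2494 and by 0.35 in EX527. SLC1A5, a glutamine and neutral amino acid carrier, fell by 0.38 in MC2494 and was 0.25 higher in EX527 (adjusted p = 0.019), an EX527 call lost with median scaling (0.14, adjusted p = 0.18) and with no scaling (0.18, adjusted p = 0.14).

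Of 8 measured asparagine, aspartate, glutamine and transaminase genes, 2 rose and 4 fell in MC2494, and 3 rose and 4 fell in EX527. BCAT1, the cytosolic branched-chain aminotransferase, rose by 1.63 in EX527 and by 1.27 in MC2494, while the mitochondrial BCAT2 fell by 0.42 and by 0.54. GOT1, the cytosolic aspartate aminotransferase, rose by 0.50 and by 1.03 in the same order, and its mitochondrial counterpart GOT2 fell by 0.33 and by 0.46. ASRGL1, which breaks down asparagine, fell by 0.57 in EX527 and by 1.16 in MC2494. The glutamine synthetase GLUL, detected on 3 of the 4 MC2494 arrays, fell by 0.50 and by 1.10, with -0.13 and -0.29 on another kept probe. The directions of these 6 genes on their brightest probes were the same with median scaling and with no scaling. The glutamate dehydrogenase GLUD1 was 0.27 higher in EX527 and 0.07 in MC2494 (adjusted p = 0.0068 and 0.42), but 0.13 (adjusted p = 0.26) and -0.23 (adjusted p = 0.035) with median scaling. The list then counted 2 higher and 5 lower in MC2494, and 2 higher and 4 lower in EX527, under either scaling.

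In the proline list no gene of 5 rose after either compound. ALDH18A1, which makes the precursor of proline, fell by 0.59 in MC2494 (limma adjusted p = 1.8e-05) with -0.01 in EX527. P4HA1, a collagen prolyl hydroxylase subunit, gave -0.12 in MC2494 on its brightest probe and -1.44 on another. Of 8 measured genes of gluconeogenesis, lower glycolysis and their neighbours, 6 fell and 1 rose in MC2494, and 3 fell and 1 rose in EX527. In EX527 6 fell with median scaling and 5 with no scaling. Not all of these genes, PKM and ME2 among the exceptions, lead to the precursor of serine. Pyruvate carboxylase (PC), which makes the oxaloacetate that PCK2 uses, fell by 1.24 in MC2494 and by 0.57 in EX527. PGK1, whose product PHGDH consumes, fell by 0.77 in MC2494, with -0.15 in EX527 (adjusted p = 0.052). The PCK2 paralog PCK1 did not pass the detection filter.

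Regulators and known targets of ATF4 rose in 15 of 18 cases in MC2494 and in 13 of 18 in EX527, with 1 fall, that of MYC, in MC2494 and none in EX527, where 35.4% and 24.3% of all kept probes were higher. The median was 1.12 in MC2494 and 0.76 in EX527. Between the compounds, 10 of the 18 were higher in MC2494 than in EX527, 3 were lower and 5 did not pass. Of all kept probes 31.4% were higher and 29% lower in that comparison. TRIB3, a pseudokinase, was higher in MC2494 than in EX527 by 1.14, DDIT3 (CHOP) by 0.97 and ATF5 by 1.04 (limma adjusted p at most 6.9e-09), whereas ASNS, PHGDH, PSAT1, SHMT2 and MTHFD2 were lower. ATF4 transcript itself was 0.49 higher in MC2494 and 0.40 higher in EX527, and the compounds differed by 0.09 (adjusted p = 0.28). On the other ATF4 probes the MC2494 differences were 0.28 and 0.83 (limma adjusted p = 0.041 and 9.1e-06). Those probes gave 0.16 and 0.59 in EX527 (limma adjusted p = 0.25 and 0.00041), so the EX527 call depends on the probe. With no scaling the ATF4 rise in MC2494 was 0.19 (adjusted p = 0.055). VLDLR, higher in both, was lower in MC2494 than in EX527 by -0.25 (adjusted p = 0.002), and SESN2 differed between them by -0.04 (adjusted p = 0.64). With 67 genes over the 6 lists, 31 rose and 26 fell in MC2494, and 23 rose and 16 fell in EX527. That is 85.1% and 58.2% called, where 70.8% and 54.3% of all kept probes were called. With median scaling 28 rose and 32 fell in MC2494, and 22 and 25 in EX527.

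**Figure D4:**
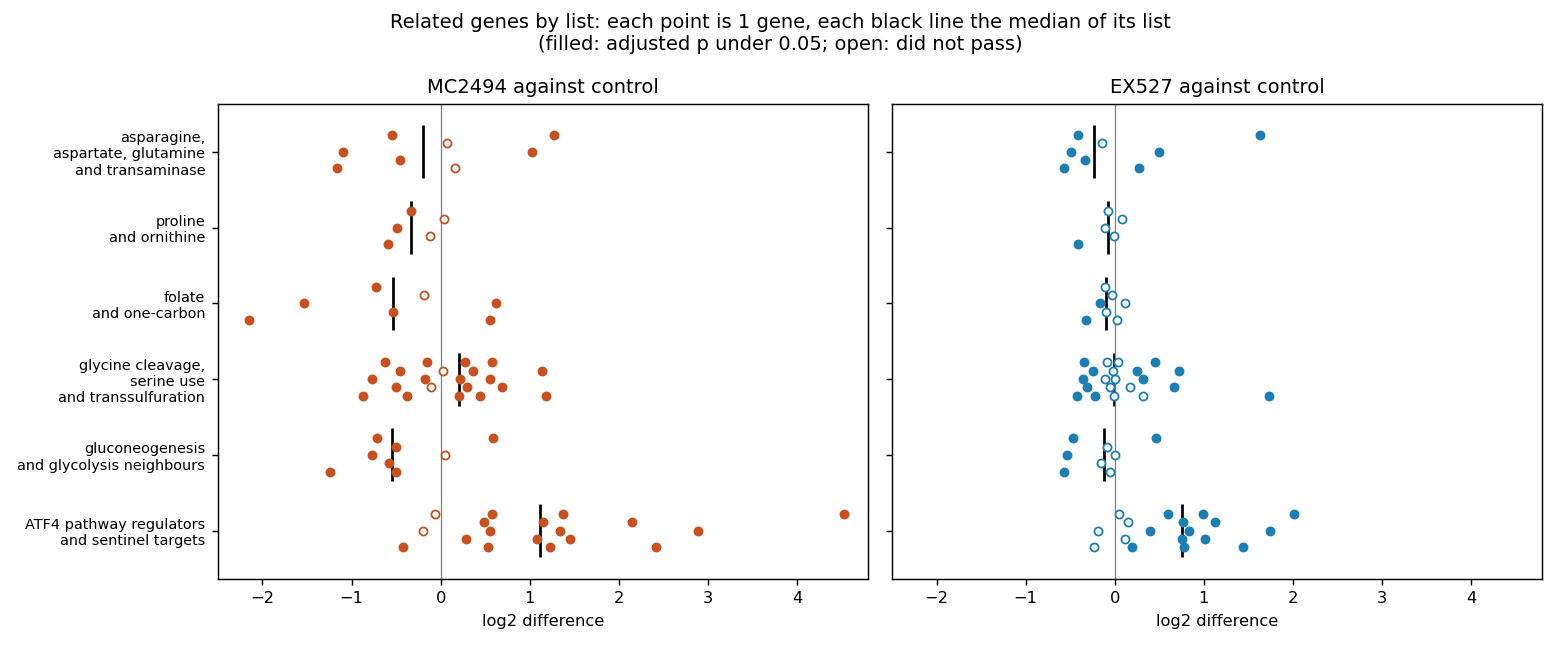
Log2 difference (horizontal axis) of 67 related genes in 6 lists (vertical axis) for MC2494 and EX527 against control. Each point is 1 gene, filled where adjusted p was under 0.05, and each black line is the median of its list; the ATF4 list has the highest medians, 1.12 and 0.76, and the folate list is at -0.54 in MC2494 and -0.10 in EX527.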

How the data were processed

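Gene expression was measured on 12 Illumina BeadChips hybridised with biotin-labelled cRNA from 3000 ng of total RNA, per the labels' protocols. The deposited intensity of each probe is linear, not background-subtracted and not normalized, and stands beside a deposited detection p-value, per the file headers. The authors' deposited log2 table holds 1 quantile-normalized distribution in its 12 columns (sorted values within 0.001), with each array's order of probes. The submitters' processing notes name limma, with no further step recorded in the labels. Groups came from the treatment label.

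Intensities were corrected and quantile normalized with neqc of limma 3.58.1 (R 4.3.3, offset 16, background from the detection p-values). Quantile normalization makes each change relative to the other probes. Of 24526 probes 21834 had 1 gene symbol and 2692 none. Symbols were updated through Entrez identifiers to RefSeq (GRCh38.p14), and 21 probes without an entry kept the older one. Because the enzymes were defined by probes, the model was fitted to 13174 kept probes, not to 1 probe per gene. A mean per group was fitted over all 12 arrays (lmFit, eBayes), and p-values were adjusted by Benjamini-Hochberg over all kept probes, at 0.05, 2-sided. The fit was tested on simulated data.

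The enzymes, the related lists and the alternatives were chosen with earlier results of these data known. Enzyme probes were all described; in each related list the genes named were those at the extremes, those that missed the threshold and paralogs, and others were named after their values were seen. Likeness was the root mean square difference over 12 arrays of log2 values centred on the control mean.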

Additional observations from a re-analysis of the deposited data

Results flagged for a closer look

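One array stood apart among the 48 groups of 4 arrays examined, 3 for each of the 16 enzyme probes. On the undetected PYCR1 probe ILMN_2395092, EX527 replicate 4 read 4.63 on the normalized log2 scale, where the nearest other EX527 array read 4.52 and the farthest 4.51. The gap was 0.931 of the group's range, above Dixon's 95% critical value. Chance passes that limit in about 1 group of 20, so 1 in 48 is fewer than it gives. The probe was below the detection limit on all 12 arrays.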

How the results depend on the processing

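The log2 differences of the 14 kept enzyme probes were recomputed under 12 other ways of processing and without each array in turn. Of 993 values so obtained, 972 kept direction and side of the threshold and 13 changed sign. With the sign kept, 6 lost their call and 2 gained one. The sign changes lay in values that were near 0 or that depend on scaling. For SHMT2 in MC2494 against control median scaling gave -0.010 and no scaling gave -0.014, and the call was lost in both (limma adjusted p = 0.90 and 0.88). For the dimmest SHMT1 probe in EX527 against control it was 0.053, 0.093 and, with array weights, 0.000, and between -0.123 and 0.044 without single arrays. For MTHFD1L in MC2494 against control it was 0.011 with array weights and between -0.057 and 0.017 without single arrays. For the brightest SHMT1 probe in EX527 it lay between -0.064 and 0.001 without single arrays. The calls lost and gained with the sign kept were those of MTHFD2, MTHFD1L, PCK2 and the dimmest SHMT1 probe, given with their values in the results. Without quantile normalization the median of all kept probes in MC2494 against EX527 moved from 0.01 to -0.10. With 1 probe per gene, 8, 7 and 9 enzyme genes were called in MC2494 against control, EX527 against control and MC2494 against EX527, fewer because 9 were tested. Counts of called enzyme probes, all probes and related genes stayed within 1.5 times under the other settings. The deposited log2 values gave the same counts of enzyme probes, 13, 11 and 14.

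Replicate numbers are shared between groups. Deviations of same-numbered arrays from their group means correlated between -0.045 and 0.184 (median 0.0545), above 0.1 in 4 of 12 pairs. For differently numbered arrays of different groups the range was -0.214 to 0.25 (median -0.0305), above 0.1 in 5 of 36 pairs. Whether same-numbered arrays belong together was not tested. With the replicate block 13, 11 and 14 enzyme probes were called, as without it, and 9407, 7285 and 8029 of all probes in place of 9326, 7160 and 7957. A slide block could not be fitted, since no slide is given in the sources used here. Low signal limits the dimmer probes of ASNS, SHMT1 and PCK2.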

Other observations

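For each enzyme gene the 3 genes with the most similar profile over the 12 arrays were taken among 9947 others, by the root mean square difference of log2 values centred on the control mean. For PSAT1 these were CTH (0.116), BCAT1 (0.124) and MS4A7 (0.139), where the median gene lay 1.20 away. CTH and BCAT1 are themselves amino acid enzymes and belong to the related lists. For ASNS the nearest was GDF15, a stress-induced cytokine, at 0.194, followed by AHI1 (0.356) and CCPG1 (0.382). For SHMT1 on its brightest probe the nearest were the helicase DHX15 (0.044) and PAICS (0.060), an enzyme of purine synthesis, with -0.80 in MC2494 and -0.03 in EX527. ANP32B (0.063) came next. SHMT2 lay nearest to LARS1, the cytosolic leucyl-tRNA synthetase (0.054), then to FNBP4 (0.062) and MRE11 (0.064). PCK2 lay nearest to IMPA2, an inositol monophosphatase (0.097), with -0.26 in MC2494 and 0.75 in EX527. The gene nearest to PHGDH was WRN (0.07), to PSPH AKAP13 (0.083) and to MTHFD2 ORC3 (0.067). MTHFD1L lay nearest to NFKBIZ and RAB1A (0.05 each). None of these is in the related lists. The distances describe likeness in 3 groups and carry no test.

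The eIF2 kinase genes, whose products raise ATF4 translation, were not alike. EIF2AK2 rose by 1.15 in MC2494 and by 0.59 in EX527 (limma adjusted p = 4e-09 and 1.1e-05). EIF2AK4, the sensor of uncharged tRNA, rose by 0.28 in MC2494, with 0.15 in EX527 (adjusted p = 0.081). EIF2AK1 gave -0.06 and 0.11, and EIF2AK3 did not pass the detection filter. With median scaling EIF2AK1 was called lower in MC2494, at -0.37 (adjusted p = 0.00017), and EIF2AK4 higher in EX527, at 0.19 (adjusted p = 0.022).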
